A study of Fukomys damarensis and Heterocephalus glaber and Mus musculus with 160 samples.

Results

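The regions described here are enhancer-like stretches of the Damaraland mole-rat (Fukomys damarensis) genome that carried the marks of an active enhancer in liver or heart and the mark of a primed enhancer in the other tissue. A region was counted as active where replicated peaks of H3K27ac and H3K4me1 overlapped with no H3K4me3, and as primed where H3K4me1 lay alone. Replicated means that peaks of at least 2 libraries overlapped by at least 50% of the shorter peak, and the same overlap rule was used between marks, tissues and factors. Of 46899 regions active in liver, 3544 overlapped a region primed in heart (7.56%). Of 30348 regions active in heart, 4668 overlapped a region primed in liver (15.4%). The 8212 members came from 77247 active regions of the Damaraland mole-rat in both tissues and from 250979 active regions over all 4 species of the study. The regions were chosen by the H3K27ac, H3K4me1 and H3K4me3 peak calls of both tissues, so their histone peaks are given as a description, without a test, except in animals that were left out of the definition.

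Enhancers are stretches of DNA that bind transcription factors and raise the transcription of genes that can lie far away. H3K4me1, a monomethyl mark on histone H3, is found at enhancers in general, and H3K27ac, an acetyl mark, at those that are in use, while H3K4me3 marks promoters. An enhancer with H3K4me1 alone is called primed: its chromatin is marked but lacks the acetyl mark of activity, a state often described at sites that are used in another cell type or at another stage. In liver, enhancers are bound by CEBPA, a basic leucine zipper factor of hepatocyte metabolism; by FOXA1, a factor that can bind closed chromatin; by the nuclear receptors HNF4A and RXRA; and by the onecut factor HNF6. TBX5 is a T-box factor that directs heart development and remains expressed in heart muscle.

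The study compared histone marks in liver and heart of 4 rodents by chromatin immunoprecipitation with sequencing, with the naked mole-rat, guinea pig and mouse beside the Damaraland mole-rat. The Damaraland mole-rat libraries used here came from 6 wild-type adult animals with estimated ages of 36 months (DMR2 and DMR3) or 48 months (DMR1, DMR4, DMR6 and DMR11). All were male except DMR6, a female. H3K27ac and H3K4me1 had 5 libraries each in each tissue, H3K4me3 had 5 in heart and 2 in liver, and 4 animals (DMR1 to DMR4) gave both tissues. Peaks of the 5 liver factors came from 8 libraries of DMR1 and DMR4, and TBX5 peaks from 1 heart library of DMR6. The samples were pieces of whole organ with no treatment, so marks of different cell types within an organ cannot be told apart. No defining markers of either tissue could be read from these peak lists, so the tissue labels were checked only through the factor peaks given further on.

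The number of peaks per library, which sets how many regions can be called, differed most in heart. Heart H3K4me1 lists held 32893 peaks (DMR11) to 158541 peaks (DMR2), and heart H3K27ac lists 51446 to 139112. Liver H3K4me1 lists held 130602 to 165394 peaks and liver H3K27ac lists 78131 to 114466. The name of the heart H3K4me1 list of DMR1 carries the tag 40M, whose meaning is not given in any source here, and it may bear on that list's peak number. Read depths are not given in the lists. Among 111 pairs of histone libraries of the same mark, the highest share of jointly covered bases was 0.705 of the bases covered by either library, so no library repeated another.

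The most frequent state of active regions of either tissue was no replicated mark in the other tissue, and priming came after shared activity in frequency. Of liver active regions, 61.7% had no heart mark and 18.7% overlapped a heart active region. Of heart active regions, 47.0% had no liver mark and 26.2% overlapped a liver active region. Some members met more than 1 state in the other tissue, since a wide active region can lie over several regions there. Among the members active in liver, 293 also overlapped a heart active region and 31 a heart promoter region. Among those active in heart, 400 and 15 did so in liver. Leaving those out, 3224 regions (6.87% of liver active) overlapped a primed region and no active or promoter region of heart. In the other direction, 4253 (14.0% of heart active) did so in liver. Other mark patterns, such as H3K27ac without H3K4me1, were not left out. Without members that touched replicated H3K27ac of the other tissue, 2993 and 4054 remained.

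**Figure D1:**
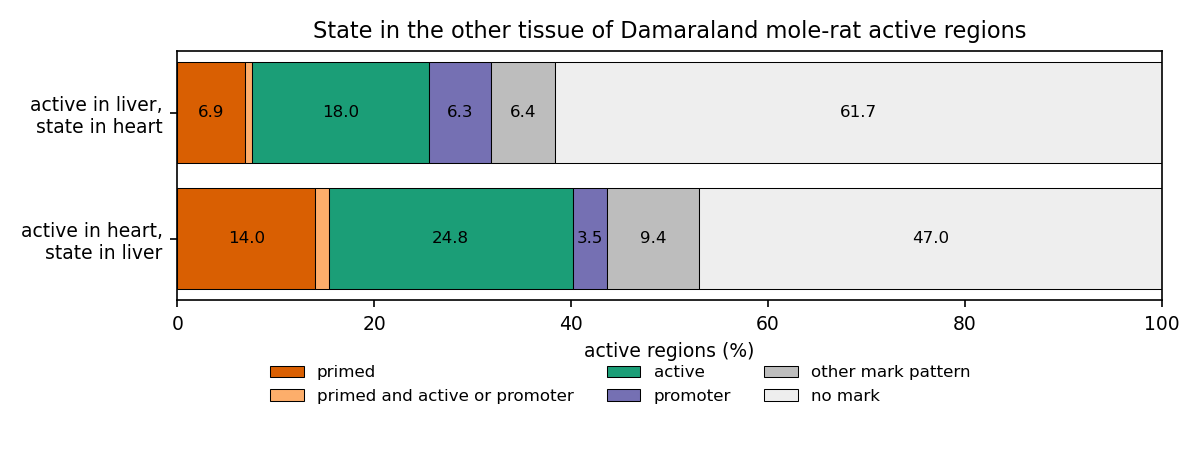
State in the other tissue of all regions active in liver (top bar) and in heart (bottom bar), as a percent of active regions on the x axis. Regions that overlapped a primed region of the other tissue, and no active or promoter region there, made up 6.87% and 14.0%. Regions with no mark there were the widest part of each bar, at 61.7% and 47.0%.

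The order of the directions depended on what the count was divided by. As a share of active regions, members were more frequent among heart active regions. As a share of primed regions, 3611 of 36660 heart primed regions (9.85%) lay under a liver active region and 4716 of 59404 liver primed regions (7.94%) under a heart active region. Nearly all members had a single primed partner, 3326 of 3544 (93.8%) for those active in liver and 4371 of 4668 (93.6%) for those active in heart. With lists cut to an equal number of peaks per library of a mark, 968 liver active regions (5.42%) and 821 heart active regions (7.48%) were members, so the larger number moved to liver. Library names beginning with do or vl in the labels divide the libraries into 2 kinds: those named do alone gave 6.00% of liver and 13.7% of heart active regions, and those named vl 3.98% and 16.1%. Both liver H3K4me3 libraries are named do, and they were kept for the liver classes of the vl count.

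When the classes were called from the H3K27ac and H3K4me1 lists of 1 animal at a time, with the replicated H3K4me3 regions of each tissue used for every animal, the heart share exceeded the liver share in 4 of 4 animals. In liver, 9.76% of active regions were primed in heart in DMR1, 10.7% in DMR2, 6.36% in DMR3 and 8.08% in DMR4. In heart, 9.95% were primed in liver in DMR1, 15.9% in DMR2, 16.4% in DMR3 and 11.2% in DMR4. The values of the tissues overlapped, with a heart mean of 13.4% ± 3.26 (SD, n = 4) against 8.73% ± 1.92 (SD, n = 4) in liver. The difference of 4.64 percentage points did not pass a two-sided exact permutation test (p = 0.0571, smallest possible 0.0286), nor with the animal as a block (exact p = 0.125, the smallest that 4 pairs allow). With equal peak numbers per library it was 1.25 points (exact permutation p = 0.257).

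The same class was present in the other 3 species, counted from their own libraries with no test, because the number of libraries and the assembly differed. In the naked mole-rat, 4.73% of liver active regions were primed in heart and 16.7% of heart active regions primed in liver. Guinea pig regions gave 10.4% and 10.1%, and mouse regions 11.02% and 13.4%. The Damaraland mole-rat shares lay between those of the naked mole-rat and the mouse in both directions.

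Single libraries showed how the marks divided between the tissues. Regions active in liver and primed in heart had an H3K4me1 peak in 89.0% to 98.9% of cases in the liver libraries (median 94.6%) and in 24.6% to 88.1% in the heart libraries (median 64.1%). Over all liver active regions the H3K4me1 shares were 77.9% to 97.2% in liver and 13.0% to 38.2% in heart. Liver H3K27ac peaks covered 64.8% to 87.8% of the members, and heart H3K27ac peaks of single libraries 4.15% to 34.2%. Over all liver active regions these shares were 65.2% to 86.3% and 16.5% to 33.9%. In DMR2, heart H3K27ac was as frequent on members (34.2%) as on all liver active regions (33.9%). Regions active in heart and primed in liver had H3K27ac peaks in 45.8% to 91.4% of cases in the heart libraries (median 81.8%) and in 10.6% to 22.6% in the liver libraries (median 21.1%). Their H3K4me1 peaks were found in 43.6% to 92.4% of cases in heart and in 62.1% to 92.1% in liver. The libraries of DMR11 (heart H3K4me1) and DMR1 (heart H3K27ac) were the lowest heart points of those marks in both directions, and these were also the shortest lists of their marks.

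**Figure D2:**
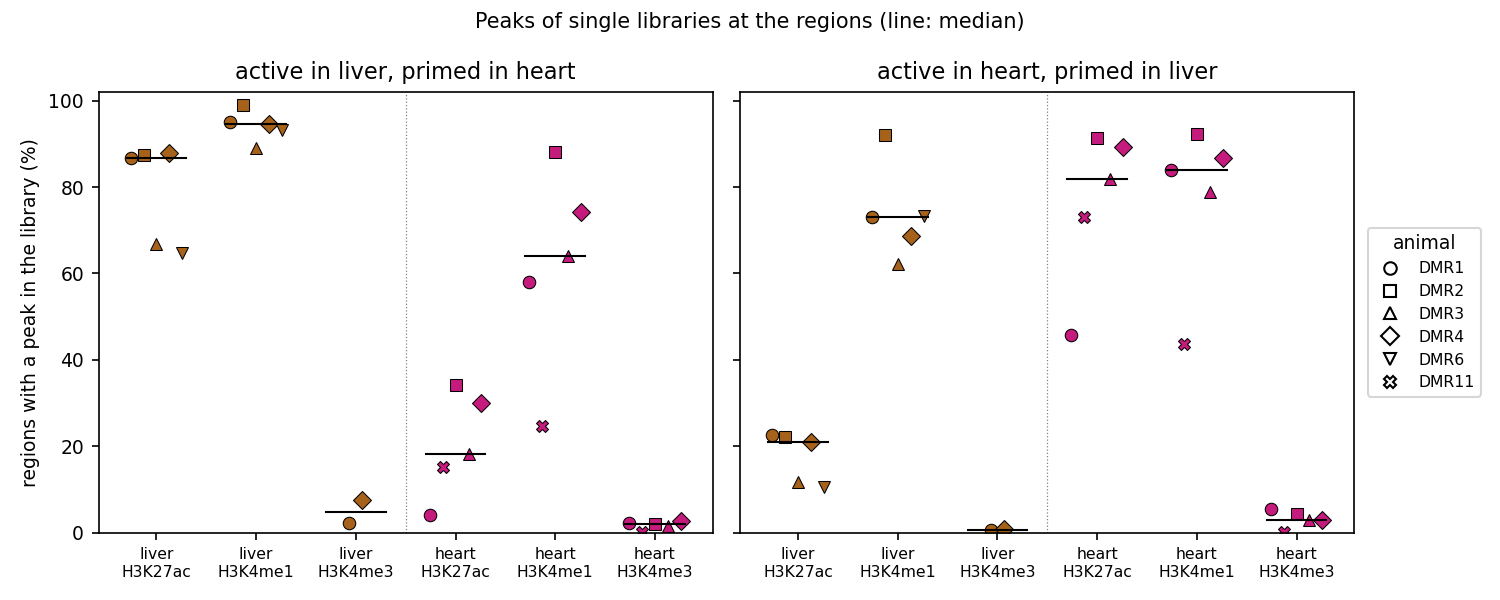
Percent of the 3544 regions active in liver and primed in heart (left) and of the 4668 regions active in heart and primed in liver (right) with a peak in each library, by tissue and mark, with 1 point for each library and a line at the median. H3K27ac points of the primed tissue reached at most 34.2% (left) and 22.6% (right), while H3K4me1 points of the heart libraries spread from 24.6% to 88.1% on the left.

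Many members had an H3K27ac peak of a single library in the tissue where they were primed. No H3K27ac or H3K4me3 peak of any library of the primed tissue touched 1599 of the regions active in liver (45.1%) and 2713 of the regions active in heart (58.1%). At 551 (15.5%) and 614 (13.2%) regions, the active region touched a replicated H3K27ac region of the primed tissue. At the other end, 386 members active in liver had an H3K4me1 peak in all 5 heart libraries, and 1610 members active in heart in all 5 liver libraries. Few members stood close to the 50% overlap limit, though the choice of limit moved the counts. With an overlap of 1 base throughout, 4374 regions active in liver and 5859 active in heart were members, and with 80%, 2839 and 3620. Between 50% and 55% overlap stood 90 and 97 regions, and just under the limit, between 45% and 50%, 91 and 72 regions. The median widths were 758 and 859 bases just inside and 782 and 1044 bases just outside. At 2138 and 3017 members the shorter region was overlapped over its whole length.

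In the tissue of activity, the H3K4me1 peaks at members stood higher in their lists than those at active regions in general. Ranked by fold enrichment within each list, where 100 is the strongest peak, the highest H3K4me1 peak on members active in liver had median percentiles of 81.2 to 88.6 over the liver libraries, and that on all liver active regions 70.8 to 80.3. In heart the percentiles were 62.2 to 81.5 for members and 57.4 to 76.6 for all heart active regions. Members were also wider, with median widths of 947.5 against 767 bases for all active regions in liver and 1094.5 against 968 bases in heart. A wider region can hold more peaks, from which the highest was taken, and H3K4me1 peaks also chose the members. The part of either was not tested. In the primed tissue the order was reversed. There, H3K4me1 peaks on members had median percentiles of 49.8 to 67.0 in heart, against 62.2 to 73.6 for all liver active regions. In liver the percentiles were 49.8 to 57.5 for members, against 70.8 to 74.7 for all heart active regions. All active regions include those also active in the other tissue, while members were chosen to overlap H3K4me1 without H3K27ac there. The part of that choice in the order was not tested. The lists differ in length, so percentiles were not compared between tissues. Fold enrichments are the authors' values from the peak caller and were ranked here within each list. The folds of named regions further on come from different lists, and their means were taken with no correction between libraries.

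Members were wider than active regions with no mark in the other tissue and narrower than those active in both. The median width was 947.5 bases for members active in liver, 713 bases for liver active regions with no heart mark and 1020 bases for regions active in both tissues. In heart the medians were 1094.5, 814 and 1456 bases. The part of width in the overlaps that define the classes was not tested. The primed stretch covered a median of 65.6% of a member active in liver and 74.4% of a member active in heart. The distance to the nearest promoter region of the active tissue had a median of 19110 bases in liver and 19698 bases in heart, against 30944 and 27148 bases for regions with no mark in the other tissue and 23369 and 19990 bases for regions active in both.

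Within 10 kb, 1226 members active in liver (34.6%) had another member of that direction and 395 (11.1%) a member of the opposite direction. For members active in heart these numbers were 1652 (35.4%) and 421 (9.02%). Shares of all active regions near a member were not counted, so these values do not show whether members cluster more than active regions do. An active region of the other tissue lay within that distance of 49.4% of members active in liver, against 40.7% of all liver active regions, and of 54.6% of members active in heart, against 57.2% of all heart active regions. The members were spread over 498 and 544 scaffolds. The window of 1 Mb with the most members active in liver, KN122489.1:1000001-2000000 in the assembly DMR_v1.0, held 18 among 75 liver active regions, against a median of 2 over 1224 windows. For members active in heart it was KN125342.1:5000001-6000000, with 27 among 87 heart active regions, against a median of 3 over 1275 windows. These windows were found by searching all windows and carry no test. Genes in them are not named, since no annotation of this assembly was used here.

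The marks were then measured in animals that had played no part in choosing the regions. For each of DMR1 to DMR4 the members were rebuilt without any histone library of that animal, which gave 2486 to 3185 regions active in liver and 3241 to 4405 active in heart, and the peaks of the animal left out were counted on them. With DMR1 or DMR4 left out, liver H3K4me3 rested on the 1 library of the other. The rule asked for H3K27ac in the active tissue and for a primed region without it in the other. It thus favours the H3K27ac differences of both directions, which speak only of how far the peak calls carried over to another animal. Regions active in liver carried an H3K27ac peak in liver in 82.9% of cases in DMR1, 81.9% in DMR2, 64.2% in DMR3 and 83.1% in DMR4. In heart the same regions carried one in 4.06%, 42.3%, 25.5% and 38.0% of cases, in the same order of animals. The tissues did not overlap, and DMR1, with the shortest heart H3K27ac list, was the lowest in heart. The means were 78.0% ± 9.25 in liver and 27.5% ± 17.2 in heart (SD, n = 4), a difference of 50.6 percentage points (two-sided exact permutation test, Benjamini-Hochberg adjusted over 4 comparisons, p = 0.0381). That test took the tissues as unpaired. With the animal as a block the difference did not pass (exact sign-flip test, adjusted p = 0.167).

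Regions active in heart gave a difference of like size in H3K27ac. In heart, 46.1% of them carried an H3K27ac peak in DMR1, 88.2% in DMR2, 77.2% in DMR3 and 84.1% in DMR4, and in liver 29.2%, 31.7%, 14.4% and 27.9%. The lowest heart value, that of DMR1, was above every liver value. The means were 73.9% ± 19.1 and 25.8% ± 7.79 (SD, n = 4), a difference of 48.1 percentage points (two-sided exact permutation test, adjusted p = 0.0381). Paired by animal, it did not pass (exact sign-flip test, adjusted p = 0.167).

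H3K4me1 divided the tissues less evenly between the directions. At regions active in liver it was called in 91.9% ± 5.52 of cases in liver and 58.0% ± 14.4 in heart (SD, n = 4), a difference of 33.8 percentage points (two-sided exact permutation test, adjusted p = 0.0381), with heart values of 42.6%, 76.3%, 51.8% and 61.5% in DMR1 to DMR4. At regions active in heart it was called in 79.1% ± 6.73 of cases in heart and 68.3% ± 14.3 in liver (SD, n = 4). That difference of 10.8 percentage points did not pass (two-sided exact permutation test, p = 0.257), and heart was higher in 3 of 4 animals, DMR2 having 87.7% in heart and 88.4% in liver. With the animal as a block, the adjusted exact p of the 3 comparisons that passed was 0.167, since 4 pairs cannot give a raw p below 0.125. The tissue of activity was higher in 4 of 4 animals for each of these 3.

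In the primed tissue of the animal left out, members differed from active regions with no mark there, a difference that the definitions themselves favour. From the other animals, unmarked regions were chosen to lack every mark in that tissue, H3K27ac included. Members needed H3K4me1 there and could touch H3K27ac. The differences thus speak only of how far the peak calls carried over to another animal. Heart H3K4me1 peaks were found at 7.60% ± 4.32 of liver active regions with no heart mark (SD, n = 4), against the 58.0% at members, a difference of 50.4 percentage points. Liver H3K4me1 peaks were found at 9.45% ± 6.55 of heart active regions with no liver mark, against 68.3%, a difference of 58.9 points. For H3K27ac the shares at unmarked regions were 4.28% ± 3.30 in heart and 5.08% ± 2.08 in liver, which gave differences of 23.2 and 20.7 points. Members were higher in 4 of 4 animals in each of these 4 comparisons, which were chosen after their values were seen. The exact permutation test, two-sided and adjusted over the 4, gave p = 0.0381 for all except heart H3K27ac (p = 0.0857), and 0.125 for each with the animal as a block.

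**Figure D3:**
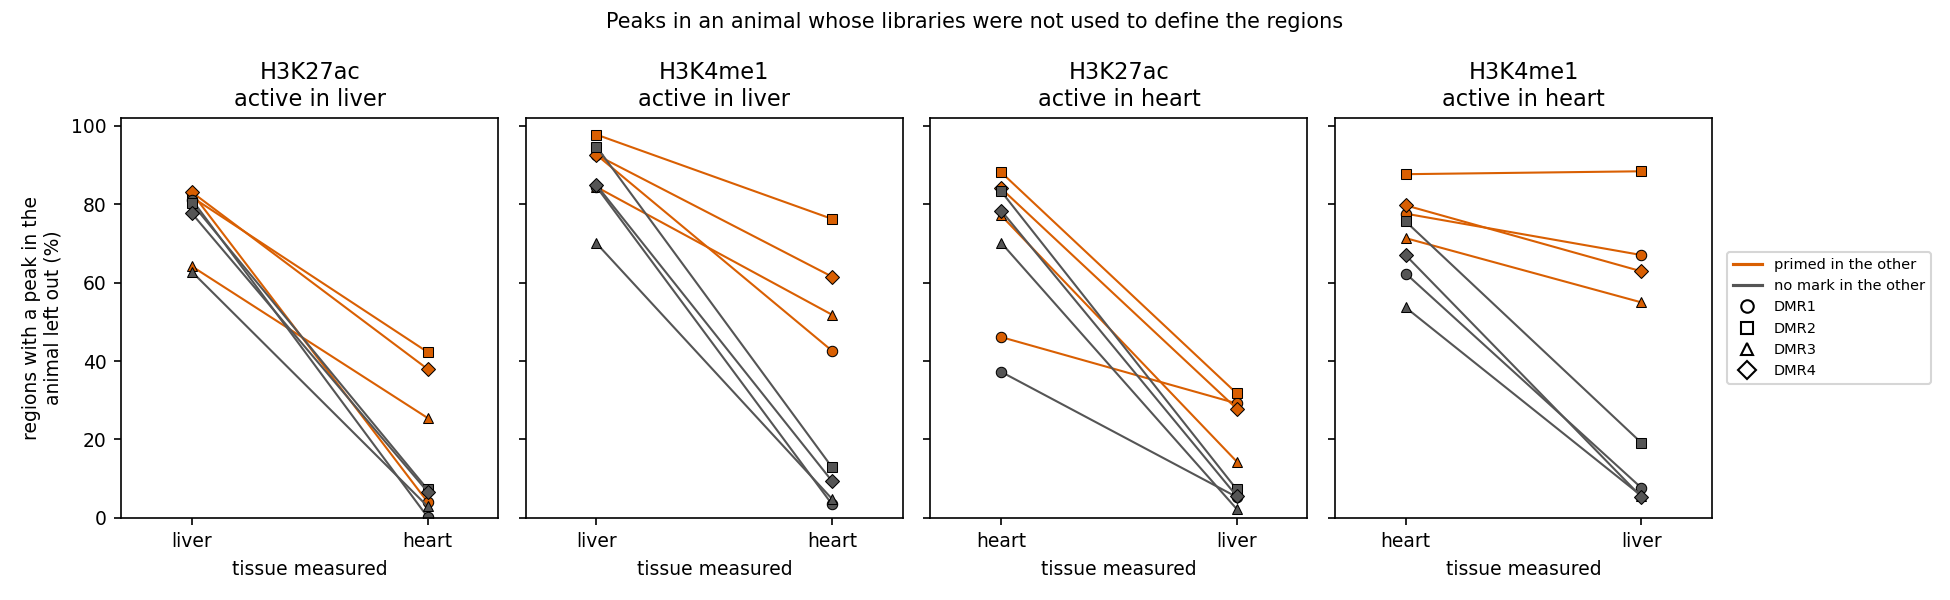
Percent of regions with an H3K27ac or H3K4me1 peak in an animal whose libraries did not define the regions, in the tissue where they were active and in the other tissue, for regions primed there (orange) and with no mark there (grey), with 1 line for each of 4 animals. In the primed tissue, H3K27ac averaged 27.5% (heart) and 25.8% (liver) at primed regions and 4.28% and 5.08% at unmarked ones.

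Liver factor peaks, which played no part in the rule, were more frequent on the regions active in liver, as they were on liver active regions in general. Peaks of at least 1 of the 5 factors lay on 2142 of 3544 regions active in liver and primed in heart (60.4%, against 56.7% of all liver active regions) and on 1392 of 4668 regions active in heart and primed in liver (29.8%, against 28.3% of all heart active regions and 32.9% of all liver primed regions). All 5 factors had a peak on 111 of the first (3.13%) and on 12 of the second (0.257%), against 2.10% of all liver active and 0.540% of all heart active regions. Members were wider than active regions in general, and these shares were not matched for width. CEBPA peaks lay on 15.9% of members active in liver in DMR1 and 38.1% in DMR4, and on 3.64% and 11.7% of members active in heart. FOXA1 peaks lay on 11.96% and 11.06% against 2.34% and 2.78%. For RXRA, 20.9% and 41.6% stood against 4.09% and 12.6%. HNF4A, measured in DMR4 alone, had 26.0% against 8.78%, and HNF6, measured in DMR1 alone, 11.6% against 4.76%. Every library was higher on the members active in liver than on those active in heart, while CEBPA and RXRA differed more between the animals than FOXA1.

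Averaged over the 8 libraries, 22.1% of members active in liver and 6.33% of members active in heart had a peak, against 18.9% of all liver active and 7.89% of all heart active regions. The difference of 15.8 percentage points (SD over libraries 8.24, n = 8) was positive in 8 of 8 libraries (two-sided exact sign-flip permutation test over libraries, adjusted over 3 comparisons, p = 0.0234; the smallest raw p is 0.00781). The 8 libraries came from 2 animals, so they are not 8 separate animals, and within 1 animal the 4 libraries gave 11.4 points (DMR1) and 20.2 points (DMR4), where the exact test cannot go below 0.125. Among regions of 500 to 1000 bases the difference was 4.80 points, again in 8 of 8 libraries. At that width, CEBPA in DMR4 lay on 16.6% of members active in liver and 21.3% of all liver active regions. Only HNF4A (11.19% and 11.16%) and RXRA in DMR4 (20.3% and 20.0%) were higher on these members, and the other libraries were lower. Per length, the median over the libraries was 134 peak summits per Mb of members active in liver and 27.2 per Mb of members active in heart, against 135 and 45.2 per Mb of all active regions of these tissues.

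Against liver active regions with no heart mark, the sign of the difference in liver factors depended on the setting. Liver active regions with no heart mark had a peak in 19.7% of cases over the 8 libraries, 2.43 percentage points below the members, and members were higher in 5 of 8 libraries (two-sided exact sign-flip permutation test, adjusted p = 0.109). The difference passed with a negative sign among regions of 500 to 1000 bases (−3.39 points, adjusted exact p = 0.00781) and with a positive sign at an overlap of 80% (6.83 points, adjusted exact p = 0.0117). It was also negative, without passing, with any overlap of 1 base (−3.12) and without members that touched heart H3K27ac (−1.43). CEBPA in DMR1 lay on 16.3% of the unmarked regions and 15.9% of the members, and HNF6 on 12.5% and 11.6%. RXRA in DMR4 lay on 33.9% and 41.6%, and HNF4A on 20.1% and 26.0%. All 4 libraries of DMR4 were higher on the members, and of the 4 of DMR1 RXRA alone was, so sign went with the animal as well as with the factor.

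Liver primed regions under a heart enhancer had a liver factor peak in 5.39% of cases over the 8 libraries, and liver primed regions with no heart mark in 7.42%. This was a difference of −2.03 percentage points that missed the threshold after adjustment (two-sided exact sign-flip permutation test, adjusted p = 0.0703), with 2 of 8 libraries higher on the members. CEBPA in DMR4 lay on 566 of 4716 members and on 7869 of 41042 unmarked regions (19.2%), and HNF6 4.01% and 7.79%. HNF4A (6.49% and 5.99%) and RXRA in DMR4 (11.1% and 10.6%) were the 2 libraries with the other sign. With the same exact test it passed in regions of 500 to 1000 bases (−2.98 points, adjusted p = 0.00781) and in primed regions free of other peaks in every library (−2.27 points, adjusted p = 0.0117). It was close to 0 at an overlap of 80% (−0.48 points, adjusted exact p = 0.523) and with equal peak numbers per library (−0.27 points, adjusted exact p = 0.867).

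Liver factors were still more frequent on heart enhancers primed in liver than on heart enhancers with no liver mark. The mean shares were 6.33% and 1.57%, and 29.8% against 10.7% had a peak of at least 1 factor. RXRA in DMR4 had 12.6% and 1.05%, and CEBPA in DMR4 11.7% and 1.73%. Of heart primed regions, those under a liver enhancer had a mean of 15.6% and those with no liver mark 1.05%. That pair is not the mirror of the first. By definition the former lie on liver enhancers and the latter lack every replicated liver mark. These values were chosen for the text after they were seen and carry no test. As a check of the liver label, peaks of liver factors were more frequent on regions active in liver than on heart active regions with no liver mark.

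TBX5 peaks of the heart library ran the other way. They lay on 715 regions active in heart and primed in liver (15.3%, exact 95% binomial interval 14.3% to 16.4%), against 13.0% of all heart active regions. They lay on 311 regions active in liver and primed in heart (8.78%, interval 7.86% to 9.76%), against 7.79% of all liver active regions. The difference of 6.54 percentage points has an interval of 5.13 to 7.94 that covers counting error alone, since there was 1 library from 1 animal and no replicate test. Among regions of 500 to 1000 bases it was 2.83 points. At that width TBX5 lay on 6.77% of members active in heart, against 5.67% of all heart active regions. For members active in liver it was 3.93%, against 4.84% of all liver active regions. Heart active regions with no liver mark had a TBX5 peak in 11.9% of cases and liver active regions with no heart mark in 5.54%. Liver primed regions under a heart enhancer had 11.7%, and those with no heart mark 4.66%, close to the 5.59% of all liver primed regions.

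**Figure D4:**
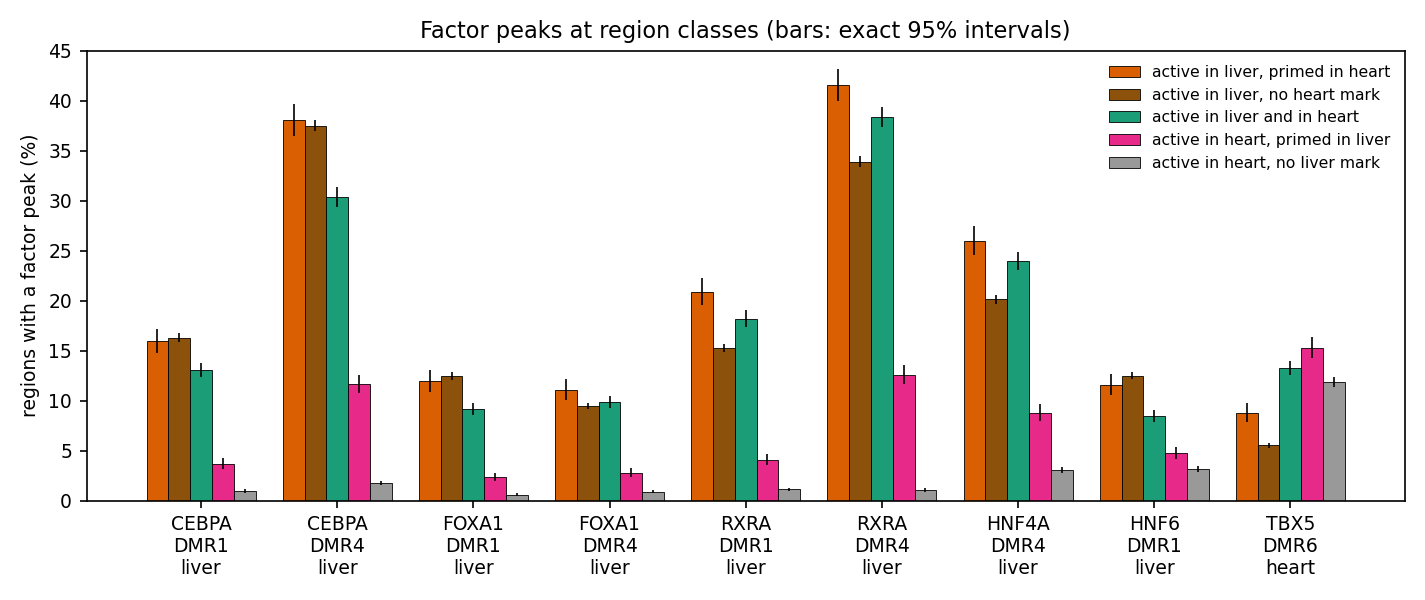
Percent of regions with a factor peak in each of the 8 liver factor libraries and the TBX5 heart library, for 5 region classes, with exact 95% binomial intervals of counting error. In each liver factor library the regions active in liver and primed in heart stood above those active in heart and primed in liver, with means of 22.1% and 6.33%, and TBX5 showed 8.78% and 15.3%.

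Single regions show the pattern. Those named here had an H3K27ac peak in every library of the active tissue, an H3K4me1 peak in every library of the primed tissue and no H3K27ac or H3K4me3 peak in any library of the primed tissue, which 41 regions active in liver and 240 active in heart met. They were ordered by mean H3K27ac fold, and, among these, by factor libraries in liver and by TBX5 fold in heart. Coordinates are those of the assembly DMR_v1.0. Folds are the highest peak of each library on the region, so those of different libraries can come from different places in it.

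The region with the highest liver H3K27ac was KN123184.1:4167016-4172829. Its liver H3K27ac fold was 28.3 in DMR1, 27.4 in DMR2, 11.7 in DMR3, 22.5 in DMR4 and 22.0 in DMR6, with a mean of 22.4 ± 6.60 (SD, n = 5). Heart H3K4me1 was 3.32 in DMR1, 4.06 in DMR2, 5.96 in DMR3, 3.09 in DMR4 and 7.68 in DMR11. The peak of DMR4, 461 to 755 bases from the centre, overlapped no heart H3K4me1 peak of another animal. Those of DMR1 (−1432 to −1024) and DMR11 (−1470 to −774) overlapped. Weaker peaks of DMR2 (−1594 to −1300) and DMR3 (−1557 to −1061) lay at that place. No heart library had an H3K27ac peak on the region, and DMR3 was the lowest liver library. All 8 liver factor libraries had a peak on it, from HNF6 in DMR1 at a fold of 4.18 to RXRA in DMR4 at 46.8, and CEBPA in DMR4 reached 35.0. A liver H3K4me3 peak of DMR4 (fold 5.64) lay on the region but had no partner in DMR1. A stronger H3K4me3 peak, again of DMR4 alone (fold 24.5), lay outside the region, 4356 to 6914 bases from its centre.

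Next came KN122777.1:3629269-3634273 (mean liver H3K27ac fold 17.9 ± 4.98), KN122575.1:440488-444303 (17.4 ± 4.66), KN122816.1:6369063-6370945 (16.9 ± 4.26) and KN122054.1:11255074-11257146 (16.5 ± 4.74; SD, n = 5 each). They had peaks in 4, 6, 0 and 4 of the 8 factor libraries. KN122816.1:6369063-6370945 was thus strongly acetylated, at 12.2 to 23.6 in the 5 liver libraries, with no peak of any factor assayed. It too carried an H3K4me3 peak in liver DMR4 (fold 9.85) and none in DMR1. With 6 factor libraries, KN123966.1:350656-356013 had a liver H3K27ac fold of 14.2 ± 3.72 and a CEBPA fold of 41.6 in DMR4, and heart H3K4me1 folds of 3.40 to 5.77.

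Among regions active in heart, KN124093.1:2533789-2539125 had the highest H3K27ac fold. It was 11.9 in DMR1, 29.2 in DMR2, 24.0 in DMR3, 11.6 in DMR4 and 20.6 in DMR11, with a mean of 19.5 ± 7.70 (SD, n = 5). Liver H3K4me1 was 8.57 in DMR1, 6.12 in DMR2, 5.43 in DMR3, 3.17 in DMR4 and 3.59 in DMR6. It held no liver factor peak and no TBX5 peak. DMR1 and DMR4 were the lowest heart libraries, and every heart H3K27ac fold was above every liver H3K4me1 fold, though folds of different marks are not on a common scale.

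The regions that followed were KN123813.1:851338-858037 (mean heart H3K27ac fold 17.9 ± 4.74), KN122776.1:753476-759437 (17.7 ± 4.22), KN121778.1:2288329-2293563 (16.9 ± 6.45) and KN123337.1:1430028-1431638 (16.3 ± 6.65; SD, n = 5 each). TBX5 peaks lay on KN123813.1:851338-858037 (fold 7.01) and on KN121778.1:2288329-2293563 (3.94). Strongest in TBX5 were KN120745.1:1807396-1810365 (fold 16.9), KN122054.1:14903402-14908216 (15.0) and KN122240.1:608262-609902 (14.5). KN120745.1:1807396-1810365 had heart H3K27ac folds from 8.65 in DMR4 to 15.8 in DMR11 and liver H3K4me1 folds from 3.74 in DMR1 to 6.91 in DMR6. Its only liver factor peak was RXRA in DMR1, at a fold of 3.60. KN122240.1:608262-609902 had liver H3K4me1 folds of 4.69 to 12.1 and heart H3K4me1 folds of 6.69 to 12.8, which come from different lists. The scaffold KN122054.1 carried named regions of both directions.

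**Figure D5:**
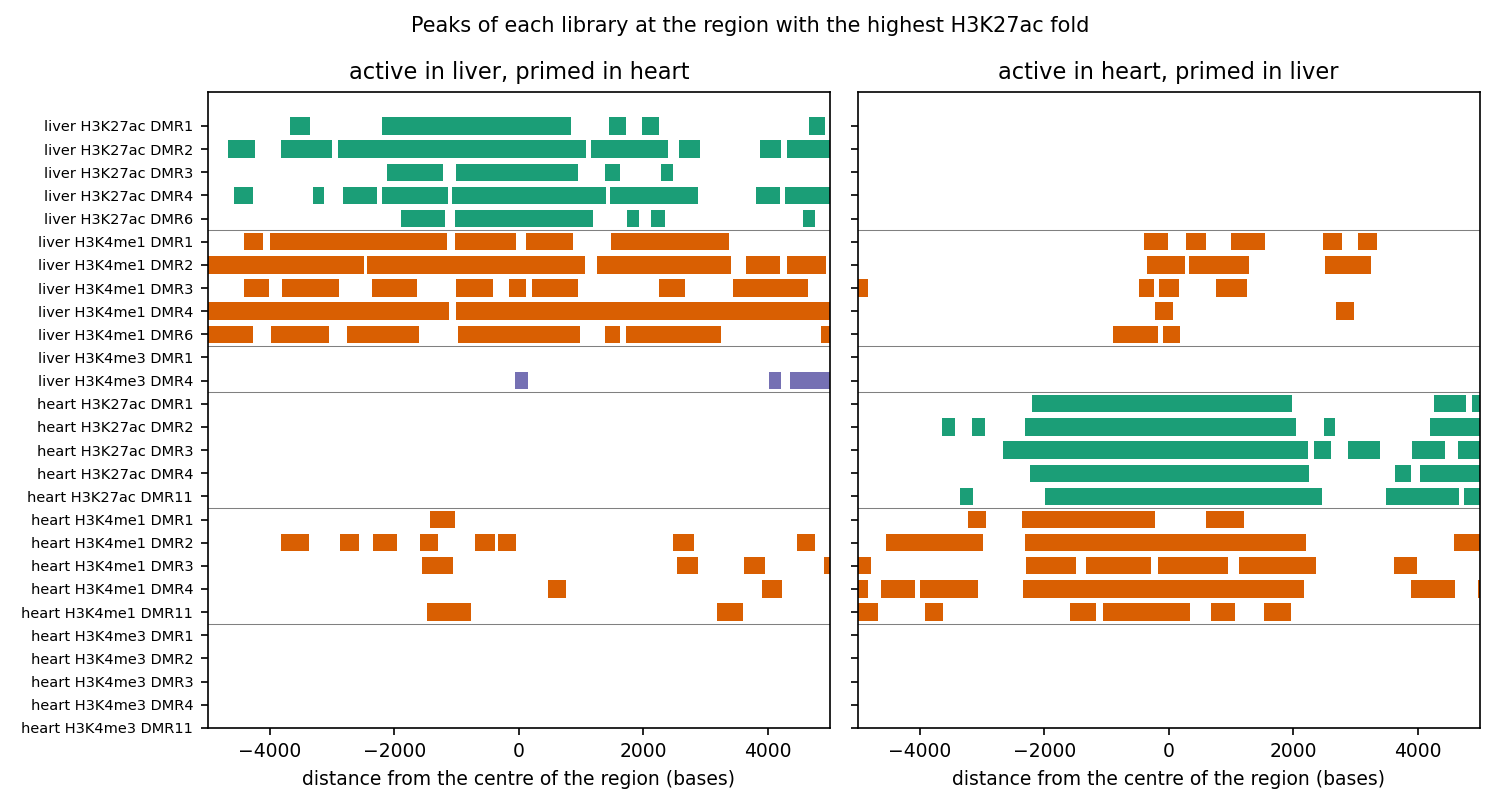
Peaks of each histone library near the centre of the region with the highest H3K27ac fold among regions active in liver (left) and in heart (right), with the distance from the centre in bases on the x axis and 1 row for each library. H3K27ac rows of the primed tissue are empty in both panels, and its H3K4me1 peaks are shorter pieces, in and around the H3K27ac peaks of the active tissue.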

How the data were processed

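Peak lists of chromatin immunoprecipitation libraries of Damaraland mole-rat liver and heart were analysed, 27 of histone marks, 8 of liver factors and 1 of TBX5. The authors deposited 1 peak list per library, called against an input library per the file names. The names of the histone lists give the assembly DMR_v1.0; those of the factor lists give none, and they were taken to be of that assembly because their peaks reach about as far along the 496 scaffolds with histone peaks beyond 1 Mb (median ratio of the last peak ends 1.00), while 1.77% of factor peaks lay on scaffolds with no histone peak. MACS2 is named per the submitters' processing notes; for its version, the aligner and the read filters, the entry is not given in the sources used here. Each deposited list gives a score, a fold enrichment, and the p-value and q-value as −log10. The lists hold no read counts, so depth is unknown and the number of peaks stands in for it. The lowest peaks lie near a q-value of 0.05, so a missing peak is not an absent mark.

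The overlap rule is given with the results, and regions that touched were merged. Liver H3K4me3 needed a peak in both of its libraries. Shares were compared with exact permutation tests over animals or libraries, adjusted by Benjamini-Hochberg, and binomial intervals are exact (Clopper-Pearson, 95%); the interval of the TBX5 difference was combined from those of the shares. The scripts were tested on simulated data. SciPy 1.17.1 and pandas 2.3.3 were run under Python 3.11.15. The labels name the animal of each library, so the liver and heart values of 1 animal are paired, and fits with the animal as a block were run as an alternative. The labels also give each library a name beginning with do or vl, and counts within each kind were made. The members, lists and named regions were chosen with earlier results of these data known. The named regions were, in each direction, the 5 with the highest H3K27ac fold, then the 3 with the most factor libraries in liver or the highest TBX5 fold in heart. Gene names, gene lists, sequences and motifs were not used here, since no genome or annotation of this assembly was at hand.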

Additional observations from a re-analysis of the deposited data

Results flagged for a closer look

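Among 28 groups of 4 to 10 values looked at, 2 had a value set apart from the others by more than Dixon's 95% limit, which chance passes in about 1 in 20 groups. The heart H3K4me1 list of DMR11 covered 43.6% of regions active in heart and primed in liver, the lowest of 5 libraries, and it was also the shortest heart H3K4me1 list, with 32893 peaks. In DMR3, 64.2% of regions active in liver and primed in heart had a liver H3K27ac peak when that animal was left out of the definition, the lowest of 4 animals.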

How the results depend on the processing

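The number of regions active in liver and primed in heart, and of those active in heart and primed in liver, was 2248 and 3007 when peaks needed a −log10 q of 4, 1886 and 2721 with 3 libraries for a consensus, 968 and 821 with equal peak numbers per library of a mark, and 1716 and 2815 where the primed region was free of other peaks in every library. An overlap of 1 base gave 4374 and 5859, and an overlap of 80% gave 2839 and 3620. Libraries named do gave 2500 (6.00% of liver active) and 2698 (13.7% of heart active), and those named vl 951 (3.98%) and 2154 (16.1%). Leaving out 1 library gave 2368 (without heart H3K4me1 of DMR2) to 4358 (without heart H3K27ac of DMR2), and 3816 to 5278. The heart share exceeded the liver share in 36 of 36 other settings, but the liver number was the larger in 3 of them, equal peak numbers and the omission of heart H3K27ac of DMR2 (4358 and 3873) or DMR4 (4294 and 3926). The share difference passed at that q limit (6.16 points, exact permutation p = 0.0286) and ran from 2.84 to 6.13 points without 1 animal; with equal peak numbers it was 1.25 points (exact permutation p = 0.257).

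The liver factor difference between the directions was 11.4 and 20.2 points within DMR1 and DMR4 (adjusted exact p = 0.188 each) and 13.9 to 17.1 points without 1 library. Members active in liver against unmarked regions gave −3.12 points at 1 base, −1.43 without touched H3K27ac regions and −3.39 in 500 to 1000 bases (passed, adjusted exact p = 0.00781), passed at 80% overlap (6.83) and without DMR1 and DMR4 in the definition, their liver H3K4me3 kept (3.85), and ran from 1.69 to 2.91 without 1 library; the cause was not tested. For regions primed in liver, the difference passed at 1 base (−3.94), with no other peak (−2.27), with the q limit on factor peaks (−1.96), with equal factor peaks (−1.46) and in 500 to 1000 bases (−2.98), with −2.40 to −1.29 without 1 library, but was −0.48 at 80% overlap (adjusted exact p = 0.523) and −0.27 with equal peak numbers (adjusted exact p = 0.867). The TBX5 difference was 8.38 points with 3 libraries for a consensus, 10.5 with equal peak numbers and 2.83 in 500 to 1000 bases.

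With the animal as a replicate block, differences of 50.6, 33.8 and 48.1 points between tissues (adjusted exact p = 0.167) and of 50.4, 20.7 and 58.9 points between primed and unmarked regions (exact p = 0.125) no longer passed; no other call changed with the block. At 80% overlap the heart H3K27ac difference between primed and unmarked regions passed (30.3 points). Without 1 animal, where 3 against 3 cannot go below 0.1, the differences between tissues were 41.1 to 54.5, 28.4 to 37.9, 43.2 to 58.5 and 8.74 to 14.6 points, and those between primed and unmarked regions 19.2 to 29.6, 46.1 to 54.2, 19.4 to 23.6 and 55.4 to 62.1 points. The regions of 500 to 1000 bases, the TBX5 settings and the comparison with unmarked regions were chosen after seeing the data.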
